A study of Drosophila melanogaster with 36 samples.

Results

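Neuropeptide and peptide hormone genes of Drosophila melanogaster were followed across the life cycle by the signal at their transcription start sites. The genes came from a list of 36 symbols, of which 35 had a row among the 12698 genes of the deposited table. The remaining gene, amn, was not matched to a row. RAMPAGE, which sequences the 5′ ends of capped RNA, had been run on whole bodies at 36 stages of a strain marked y; cn bw sp, with collected animals giving 1 library per stage. Embryos were taken in 24 consecutive windows of 1 h. Larvae were L1, L2 and wandering L3 staged by gut dye as dark, light or clear, and pupae were aged 1, 2, 3, 4 or 5 days from the white prepupa. Adults were males and females kept for 5 days after eclosion. Embryos formed 1 multiplexed library, larvae with pupae another and adults one more, and adult RNA was prepared with another reagent and read on another instrument, so those differences and stage class cannot be told apart and no test crosses them.

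Neuropeptides are cut from larger precursor proteins in the secretory pathway, stored in dense-core vesicles and released from neurons and endocrine cells. Most act on G protein-coupled receptors. In flies they coordinate feeding, water balance, metabolism, the daily rhythm and the moult, and many are made by a small number of cells in each animal. In whole animals, fewer cells of a type and less RNA per cell cannot be told apart. RAMPAGE reads count 5′ ends and not fragments along a transcript, so levels in RPM (reads per 1000000 reads) are compared between genes without a length term.

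Reads per library ran from 698702 upward to 11856035 among embryos, and the lowest value in any stage belonged to the 7 to 8 h window. Larval libraries held at least 873086 reads (L3 with dark gut) and pupal libraries at least 1066282 (1 day). Across all 36 libraries 3 reads were worth between 0.18 and 4.29 RPM, so a gene listed at 0 was below detection at that depth and is not shown to be silent. The 4 embryo windows with under 1000000 reads (7 to 8, 11 to 12, 12 to 13 and 19 to 20 h) carried the coarsest values. In pupae, minus-strand genes were listed at 0 in all 5 libraries, so the 21 minus-strand members have no pupal value here and the 14 plus-strand members do. The 3 to 4 h window stood apart from its neighbours. The 7 late epidermis and cuticle markers summed to 1869 RPM there, against 378 RPM at 2 to 3 h and 49.2 RPM at 4 to 5 h. The 4 to 5 h sum was itself low beside later windows. These summed to 852 RPM at 5 to 6 h, 1123 RPM at 6 to 7 h, 548 RPM at 7 to 8 h and 1860 RPM at 8 to 9 h. In that window 28 members were above 0, against 17 in the window before and 10 in the window after. Depth differed too, at 8575994 reads against 2835056 before and 3456392 after. The deep 8 to 9 h window (11856035 reads) likewise had 28 members above 0. Results of 4 to 8 h are therefore also given without it.

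Summed over the 35 members, start-site signal was 9.296 RPM at 0 to 1 h and 2311 RPM at 23 to 24 h. Nplp2, a neuropeptide-like precursor, was the highest member in every window from 0 to 22 h and Nplp4, another such precursor, in the last pair of windows. With Nplp2, Nplp3 and Nplp4 set aside, the sum still went from 2.187 to 706 RPM. A limma F test of a course over the 24 h called 29 of the 30 members that passed the filter (at least 2 RPM in at least 3 libraries), against 89.8% of all 9939 genes tested, and Pburs did not pass (adjusted p = 0.0615). AstCC, Dsk, FMRFa, Nplp3 and Ptth did not reach the filter in embryos. Because that filter keeps genes through their high libraries, counts below describe the 30 members and say nothing about the other 5. The highest window lay in 20 to 24 h for 22 members (73.3%), in 16 to 20 h for 7 and in 8 to 12 h for CNMa. That of CNMa rested on 4 reads at 11 to 12 h, a library under 1000000 reads. Dh31, Dh44, Nplp1, Nplp2 and Pdf (10 reads) had theirs at 19 to 20 h, another such library. Among all genes tested, 15.3% had their highest window in 20 to 24 h and 9.92% in 16 to 20 h.

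**Figure D1:**
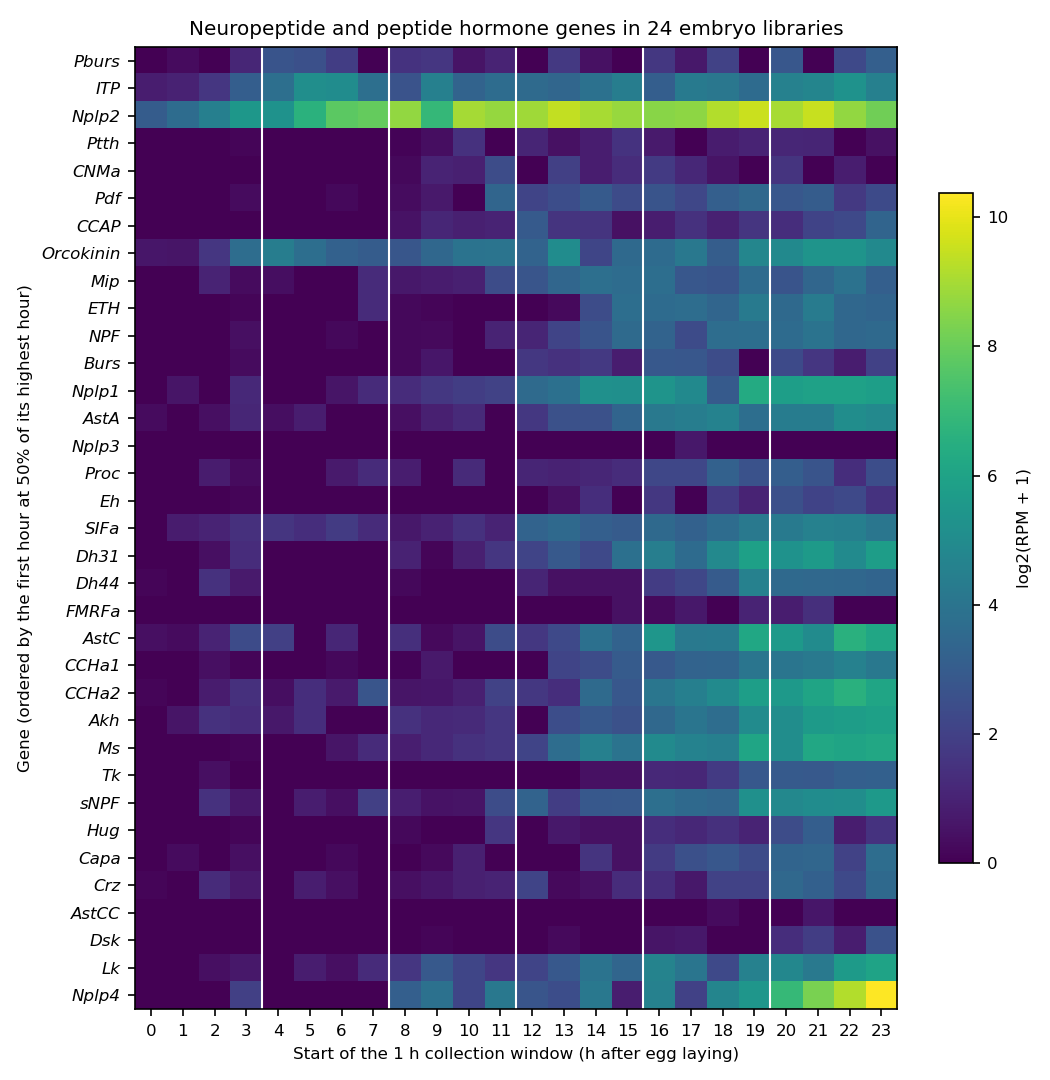
Start-site signal of the 35 peptide genes (rows) in the 24 embryo libraries (columns, by the start of the 1 h window), coloured by log2(RPM + 1), with white lines between the 6 periods of 4 h. Rows run from the earliest to the latest first window with at least 50% of a gene's own highest window. Nplp2, ITP and Orcokinin are bright from early windows, most rows brighten after 12 h, and Nplp4 is brightest in the last window.

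Embryo windows were set in 6 periods of 4 libraries, and each period was compared with the one before in 1 limma fit. Calls required an adjusted p (Benjamini-Hochberg) below 0.05 over all genes and at least a 2-fold change on the log2(RPM + 1) scale, which understates changes of low genes. The 4 libraries of a period are neighbouring stages and not replicates, so errors and p-values measure the spread between stages, and adjoining comparisons share a period. In 4 to 8 h 3 of 30 members were called higher, as were 9.3% of all genes. In 8 to 12 h it was 1 member (14.1% of all genes), followed by 9 in 12 to 16 h (10.8%). The count was 12 in 16 to 20 h (8.49%). In 20 to 24 h 3 members were called, all higher (4.52% of all genes were called higher and 6.79% in either direction). The first and second of these counts lie near or below the background share. No member was called lower in any of the 5 embryo comparisons by limma at this threshold, whereas 8.53%, 3.3%, 4.84%, 16.9% and 2.27% of all genes were. A gene that averages below 1 RPM in the earlier period cannot fall 2-fold on this scale. Of the tested members, only AstC, ITP, Nplp2 and Orcokinin averaged above 1 RPM in 0 to 4 h. In 4 to 8 h only these, CCHa2, Pburs and SIFa did, so most members could not be called lower in the first and second comparisons. Nor did any tested member fall at an unadjusted limma p below 0.05, and edgeR and DESeq2 each called 0 lower, with 2 members each at an unadjusted p below 0.05 in 4 to 8 h. In all, 22 members were called in at least 1 comparison, a count for which the share over all genes was not computed. The median log2 change of the tested members was -0.01, 0.33, 0.86, 0.88 and 0.82 in the 5 comparisons, beside 0.00, 0.22, -0.09, -0.50 and 0.16 over all genes. Every library of the later period lay above every library of the earlier one for 1, 6, 9, 10 and 7 of 30 members, where 7.34%, 17.3%, 9.69%, 6.22% and 5.36% of all genes did so.

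Scaling by median-of-ratios size factors instead of RPM moved the median log2 change of all genes by 0.24 in the comparison of 12 to 16 h, by 0.62 in that of 16 to 20 h and by -0.16 in that of 20 to 24 h. With that scaling, genes called higher made up 87% instead of 69.1% of all calls in 12 to 16 h, 76.9% instead of 33.4% in 16 to 20 h and 56.4% instead of 66.5% in 20 to 24 h. Under it 11, 18 and 4 members were called higher in those comparisons and none lower. Over all genes, 1312, 1399 and 438 were called higher under it, where RPM gave 1076, 844 and 449.

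**Figure D2:**
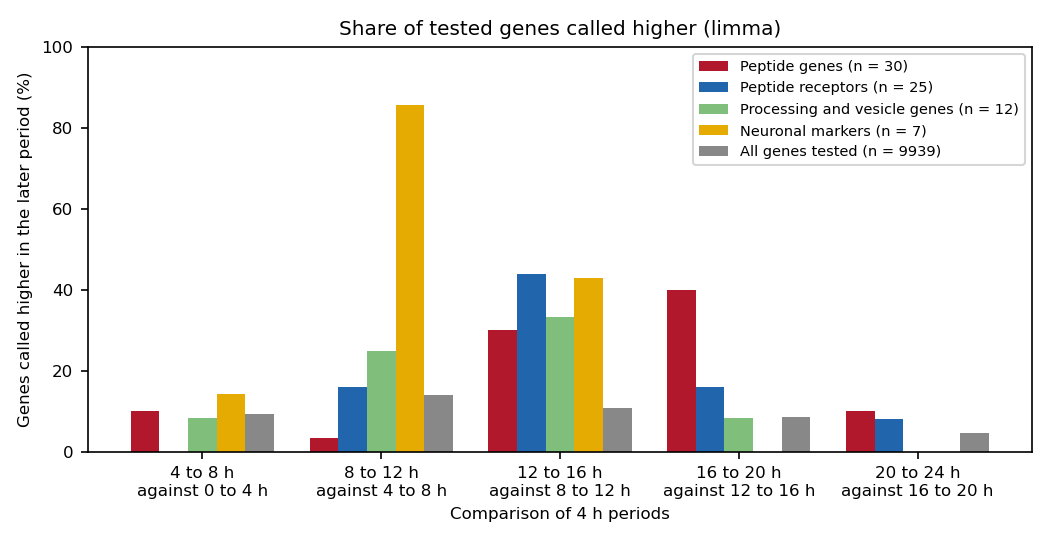
Percentage of tested genes called higher by limma in the later of neighbouring 4 h periods (adjusted p below 0.05, at least a 2-fold change), for peptide genes, peptide receptors, processing and vesicle genes, neuronal markers and all genes. Neuronal markers have their tallest bar at 8 to 12 h (85.7%), receptors at 12 to 16 h (44%) and peptide genes at 16 to 20 h (40%). The place of the tallest peptide bar depends on the method. In edgeR, in DESeq2 and in limma without the shallow windows, more peptide genes were called at 12 to 16 h than at 16 to 20 h.

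The members called at 4 to 8 h were ITP, Nplp2 and Orcokinin. ITP, the ion transport peptide that acts in water balance, measured 0.765, 0.996, 2.12 and 7.7 RPM in the 4 windows of 0 to 4 h and 13, 33.9, 32.1 and 12.9 RPM in those of 4 to 8 h. The periods did not overlap, and the log2 change was 2.80 ± 0.49 (SE; adjusted p = 0.0003). ITP then stayed between 5.31 and 38.3 RPM until hatching, with no further call.

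Nplp2 measured 7.11, 11.7, 21.5 and 43.5 RPM in 0 to 4 h and 37.6, 98.6, 219 and 239 RPM in 4 to 8 h. Only the 4 to 5 h window lay inside the earlier range, and the log2 change was 2.74 ± 0.54 (SE; adjusted p = 0.00104). From 10 h onward Nplp2 ranged from 276 RPM at 23 to 24 h to 745 RPM at 19 to 20 h. Orcokinin, the precursor of orcokinin peptides, measured 0.547, 0.498, 2.12 and 12.2 RPM in 0 to 4 h and 19.96, 12.6, 8.22 and 7.16 RPM in 4 to 8 h. Its 3 to 4 h value overlapped the later period, and the log2 change was 1.95 ± 0.60 (SE; adjusted p = 0.024). The Orcokinin call was lost when the 0 to 1, 1 to 2, 4 to 5 or 5 to 6 h window was left out (adjusted p = 0.104, 0.104, 0.072 and 0.0551), and in edgeR (adjusted p = 0.199) and DESeq2 (adjusted p = 0.162). Without the 3 to 4 h window its log2 change was 2.65 (adjusted p = 0.000677), and ITP and Nplp2 stayed called.

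Nplp4 was at 0 in all 4 windows of 4 to 8 h and measured 7.84, 13.5, 3.55 and 17 RPM in 8 to 12 h, the only call of that comparison (adjusted p = 0.00275). It measured 5.57, 4.49, 16.7 and 0.757 RPM in 12 to 16 h and 22.8, 3, 25.5 and 42.3 RPM in 16 to 20 h, periods that overlapped. In the last period it measured 123, 316, 584 and 1328 RPM, above every earlier window, with a log2 change of 4.52 ± 0.74 (SE; adjusted p = 0.000253). That late call was absent in edgeR. The count of 1 member at 8 to 12 h was 2 without the 6 to 7 or the 9 to 10 h window and 3 without the 7 to 8 or the 8 to 9 h window. There edgeR also called Lk and CCAP, and DESeq2 Lk and Pdf.

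The allatostatins and Mip (myoinhibiting peptide) were named for inhibiting hormone synthesis or muscle contraction, and Ms (myosuppressin) and Proc (proctolin) for slowing or driving contractions. Ms measured 0.844, 1.29, 1.78 and 2.13 RPM in 8 to 12 h, 3.34, 11.9, 21.7 and 14.4 RPM in 12 to 16 h and 30.5, 23.4, 21.1 and 68.1 RPM in 16 to 20 h. The first pair of periods did not overlap (log2 change 2.27 ± 0.46 SE, adjusted p = 0.00188) and the second pair overlapped at 21.7 RPM (14 to 15 h), with a log2 change of 1.48 ± 0.46 (SE; adjusted p = 0.0206). The second Ms call was lost without the 12 to 13 h window (adjusted p = 0.101) or without the 19 to 20 h window (adjusted p = 0.0832). Mip went from 0.59, 0.751, 0.888 and 4.25 RPM to 5.57, 9.77, 12.8 and 11.7 RPM between 8 to 12 h and 12 to 16 h, with no overlap (log2 change 2.20 ± 0.43 SE, adjusted p = 0.00144). Mip was between 5.53 and 14.1 RPM afterwards, and neither later comparison called it.

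AstA (allatostatin A) climbed in both steps. Its values were 0.337, 0.859, 1.33 and 0 RPM in 8 to 12 h, 2.23, 4.88, 5.04 and 9.08 RPM in 12 to 16 h and 17.2, 19.8, 23.5 and 12.4 RPM in 16 to 20 h. Neither pair of periods overlapped, and the log2 changes were 1.91 ± 0.38 (SE; adjusted p = 0.00171) and 1.69 ± 0.38 (SE; adjusted p = 0.00287). AstC (allatostatin C) was called by limma over all windows at the second step, from 2.23, 3.91, 13.2 and 8.71 RPM to 42.9, 17.4, 18.3 and 72.3 RPM (log2 change 2.26 ± 0.61 SE, adjusted p = 0.00982). All 4 later values of AstC exceeded the 4 earlier ones. edgeR, DESeq2 and limma without the 4 shallow windows also called AstC at the first step, and the last of these did not call it at the second. Proc was low throughout, from 1.11, 0.977, 1.16 and 1.51 RPM in 12 to 16 h to 3.58, 3.6, 8.41 and 5.16 RPM in 16 to 20 h, again without overlap (log2 change 1.44 ± 0.39 SE, adjusted p = 0.0101). AstCC, the neighbour of AstC, and FMRFa, an FMRFamide-related peptide gene, never passed 1.62 RPM in embryos.

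NPF and sNPF, the long and short neuropeptide F precursors, act in feeding and arousal. NPF measured 0.169, 0.215, 0 and 1.06 RPM in 8 to 12 h and 1.11, 3.32, 5.42 and 11 RPM in 12 to 16 h. The periods of NPF did not overlap (log2 change 1.98 ± 0.41 SE, adjusted p = 0.0021). They were parted only by 1.06 RPM at 11 to 12 h and 1.11 RPM at 12 to 13 h, each 1 read in a shallow library. sNPF went from 0.844, 0.429, 0.444 and 4.25 RPM to 8.91, 2.73, 6.2 and 6.43 RPM over the same step (log2 change 1.66 ± 0.50 SE, adjusted p = 0.0263). The 11 to 12 h value of sNPF lay above the lowest later value, and the call was lost when any 1 of 6 windows (8 to 9, 9 to 10, 10 to 11, 12 to 13, 14 to 15 or 15 to 16 h) was left out, with adjusted p between 0.0564 and 0.0895. SIFa, a peptide of a few brain neurons that act in feeding and courtship, moved from 0.59, 0.966, 1.78 and 1.06 RPM to 8.91, 10.7, 7.75 and 6.81 RPM (log2 change 2.20 ± 0.34 SE, adjusted p = 0.000233). Its later values were all above its earlier ones. Nplp1, the precursor of the NAP and IPNamide peptides, went from 1.52, 2.25, 2.66 and 3.19 RPM to 11.1, 13.3, 35.6 and 34.8 RPM, the largest log2 change among the 9 calls of that step at 2.71 ± 0.53 (SE; adjusted p = 0.0016).

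Akh (adipokinetic hormone), which mobilises stored lipid and sugar, measured 0, 4.49, 6.2 and 4.92 RPM in 12 to 16 h, 10.4, 15.6, 12 and 31 RPM in 16 to 20 h and 33, 49.2, 53.1 and 58.2 RPM in 20 to 24 h. None of these periods overlapped the next. The first log2 change was 2.10 ± 0.51 (SE; adjusted p = 0.00494), and the second was not called (adjusted p = 0.0764). CCHa1 and CCHa2 encode CCHamides, peptides of gut endocrine cells and brain, and CCHa2 links feeding to growth. CCHa2 measured 2.23, 1.56, 10.8 and 6.06 RPM in 12 to 16 h and 15.7, 21, 30.3 and 54.7 RPM in 16 to 20 h, without overlap (log2 change 2.46 ± 0.55 SE, adjusted p = 0.00242). CCHa1 measured 0.0843, 0.644, 0 and 0 RPM, then 0, 3.32, 4.26 and 6.81 RPM and then 6.46, 9, 9.13 and 15.5 RPM in 8 to 12, 12 to 16 and 16 to 20 h, with log2 changes of 1.66 ± 0.43 (SE; adjusted p = 0.0103) and 1.53 ± 0.43 (SE; adjusted p = 0.0119). Both pairs of CCHa1 periods overlapped. Its first call was lost without the 15 to 16 h window (adjusted p = 0.0599) and its second without the 12 to 13 h window (log2 change 0.91, adjusted p = 0.0515). Tk (tachykinin), a peptide of brain and gut, was at 0 from 3 to 14 h, measured 0, 0, 0.387 and 0.379 RPM in 12 to 16 h, 1.29, 1.2, 2.4 and 6.19 RPM in 16 to 20 h and 6.76, 6.48, 7.81 and 8.15 RPM in 20 to 24 h. No consecutive periods of Tk overlapped after 12 h, and both log2 changes were called, 1.50 ± 0.30 (SE; adjusted p = 0.00104) and 1.31 ± 0.30 (SE; adjusted p = 0.00615).

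Among peptides of water balance, Dh31 and Dh44 are related to vertebrate calcitonin and corticotropin-releasing factor, and Capa peptides and Lk (leucokinin) act on the renal tubules. Dh31 measured 1.01, 0.107, 0.888 and 2.13 RPM in 8 to 12 h, 3.34, 6.45, 3.87 and 13.2 RPM in 12 to 16 h and 20.8, 11.4, 28.8 and 58.8 RPM in 16 to 20 h. Its first step showed no overlap (log2 change 1.85 ± 0.46 SE, adjusted p = 0.00763) and its second overlapped at 15 to 16 h (log2 change 1.94 ± 0.46 SE, adjusted p = 0.00397). Dh44 measured 1.11, 0.391, 0.387 and 0.379 RPM in 12 to 16 h and 2.58, 3.6, 6.97 and 22.7 RPM in 16 to 20 h, with no overlap and a log2 change of 2.28 ± 0.42 (SE; adjusted p = 0.000459). Capa went from 0, 0, 1.94 and 0.379 RPM to 2.48, 4.8, 6 and 4.13 RPM over that step, also without overlap (log2 change 1.87 ± 0.37 SE, adjusted p = 0.00104). Lk was not called by limma over all windows, but at 8 to 12 h it was called by edgeR, by DESeq2 and by limma without the 4 shallow windows. Its period medians ran 2.84, 7.86, 19.2 and 38.3 RPM from 8 to 12 h onward, with 63.4 RPM at 23 to 24 h.

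Hormones of the moult were sparse in embryos apart from ETH. ETH (ecdysis triggering hormone), made in the Inka cells of the tracheal system, starts the shedding of the cuticle through Eh (eclosion hormone) and CCAP neurons. Burs and Pburs are the subunits of bursicon, the tanning hormone. ETH measured 0, 0.195, 4.26 and 12.5 RPM in 12 to 16 h and 11.3, 12, 9.37 and 18.6 RPM in 16 to 20 h. The 15 to 16 h value overlapped the later period (log2 change 2.15 ± 0.55 SE, adjusted p = 0.00654), and the call was absent in edgeR and in DESeq2, which both called ETH one period earlier. Eh did not pass 4.77 RPM and CCAP did not pass 9.26 RPM in any window, and limma over all 24 windows called neither. edgeR called CCAP at 8 to 12 h and Eh at 12 to 16 h, and limma without the 4 shallow windows called CCAP at 20 to 24 h. Burs measured 2.23, 1.76, 2.32 and 0.757 RPM in 12 to 16 h and 6.16, 6, 4.32 and 0 RPM in 16 to 20 h and was not called by limma over all windows, its 0 coming from the shallow 19 to 20 h window. DESeq2 called Burs at 12 to 16 h, and limma without the 4 shallow windows at 12 to 16 h and at 16 to 20 h. Pburs had an early and a late high. It measured 5.5, 4.73, 2.69 and 0 RPM in 4 to 8 h, 0, 2.34, 0.387 and 0 RPM in 12 to 16 h and 5.96, 0, 3.91 and 7.78 RPM in 20 to 24 h. Whether the course of Burs and Pburs differs was not tested.

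Of the remaining members, Crz (corazonin), a stress peptide, was called at the last step. It measured 1.59, 0.6, 3.12 and 3.1 RPM in 16 to 20 h and 10.3, 8.1, 3.91 and 10.7 RPM in 20 to 24 h, with no overlap and a log2 change of 1.60 ± 0.42 (SE; adjusted p = 0.0169). The Crz call was lost without the 16 to 17, 17 to 18 or 23 to 24 h window (adjusted p = 0.0536, 0.0964 and 0.0701) and in both count tests. Pdf, the output peptide of clock neurons, was first at or above 50% of its highest window at 11 to 12 h (9.56 RPM) and stayed between 2.34 and 10.3 RPM afterwards. Over all windows limma did not call Pdf, while DESeq2 did at 8 to 12 h and limma without the 4 shallow windows at 12 to 16 h. Hug (hugin), a feeding and growth peptide, reached 7.56 RPM and CNMa 4.25 RPM at their highest. Dsk (drosulfakinin), a satiety peptide, reached 5.19 RPM and Ptth, the brain hormone that drives ecdysone release, 1.89 RPM.

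Counts at the last 3 steps depended on the shallow windows. Without the 4 embryo libraries under 1000000 reads, an alternative chosen after the data were seen, 15 members instead of 9 were called at 12 to 16 h, 7 instead of 12 at 16 to 20 h and 10 instead of 3 at 20 to 24 h. Akh, AstC, CCHa1, Dh31, ETH and Ms lost their call at 16 to 20 h there, with adjusted p between 0.0559 and 0.229. Gained at 12 to 16 h were Akh, AstC, Burs, CCHa2, ETH and Pdf, and at 20 to 24 h Akh, CCAP, CCHa1, CCHa2, Dh44, Ms and sNPF. Burs was gained at 16 to 20 h and Pburs at 4 to 8 h. In edgeR and in DESeq2, too, more members were called at 12 to 16 h than at 16 to 20 h. At 20 to 24 h the count was 5 without the 19 to 20 h window alone. edgeR called 0 and DESeq2 1 member at that step, where 10 of 30 members had an unadjusted limma p below 0.05. Of all 9939 genes tested, 1739 did so. Without the shallow libraries, counts over all genes in either direction also fell at 16 to 20 h and rose at 20 to 24 h, as given in the closing section. The share of all genes called higher in that setting is not given here. Whether members changed more than all genes therefore cannot be told from these counts.

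Timing within each gene was described by its first window with at least 50% of its own highest window. The median over the 30 members was 18 to 19 h. It was 15 to 16 h for 25 tested peptide receptors, 14 to 15 h for 7 neuronal markers, between 12.5 and 13.5 h for 12 processing and vesicle genes and 2 to 3 h for all genes. Pburs (4 to 5 h), ITP (5 to 6 h) and Nplp2 (8 to 9 h) were the earliest members, and Lk (22 to 23 h) and Nplp4 (23 to 24 h) the latest. Akh, AstC, CCHa1, CCHa2, Dh31, Dh44, Ms, sNPF and Tk shared the 19 to 20 h window, a shallow library of 968765 reads.

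Receptors for these peptides had their largest count of calls at 12 to 16 h. Of 25 tested receptors, 0, 4, 11, 4 and 2 were called higher in the 5 comparisons and 2, 0, 0, 1 and 0 lower. At 12 to 16 h the largest log2 changes were those of MsR1, a myosuppressin receptor (log2 change 1.83 ± 0.30 SE, adjusted p = 0.000456), NPFR, the NPF receptor (log2 change 1.77 ± 0.40 SE, adjusted p = 0.00431), and Lkr, the leucokinin receptor (log2 change 1.55 ± 0.31 SE, adjusted p = 0.00161). At 8 to 12 h SPR, the receptor of sex peptide and of Mip, had the largest change (log2 change 2.51 ± 0.42 SE, adjusted p = 0.000285), followed by FMRFaR (log2 change 1.51 ± 0.44 SE, adjusted p = 0.0191) and CrzR, the corazonin receptor, which was at 0 in 4 to 8 h and averaged 2.46 ± 2.6 RPM (SD over 4 windows) in 8 to 12 h (adjusted p = 0.0283). The receptors called lower at 4 to 8 h were Proc-R, the proctolin receptor (log2 change -3.02 ± 0.50 SE, adjusted p = 0.000205), and tor, the receptor tyrosine kinase that Ptth activates in larvae and that patterns the ends of the early embryo (log2 change -1.92 ± 0.42 SE, adjusted p = 0.00219). Lgr4 was called lower at 16 to 20 h (log2 change -1.09 ± 0.39 SE, adjusted p = 0.0403).

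Processing and vesicle genes were called in the first 4 comparisons. Of 12 tested, 1, 3, 4, 1 and 0 were called higher and 1, 0, 0, 1 and 0 lower. Rab3, a GTPase of secretory vesicles, was called at 8 to 12 h (log2 change 2.62 ± 0.51 SE, adjusted p = 0.000949) and at 12 to 16 h (log2 change 2.27 ± 0.51 SE, adjusted p = 0.00371). IA-2, a dense-core vesicle protein, was called at 12 to 16 h (log2 change 2.25 ± 0.64 SE, adjusted p = 0.018) and at 16 to 20 h (log2 change 1.99 ± 0.64 SE, adjusted p = 0.0242). Syt4, a synaptotagmin, was called at 8 to 12 h (log2 change 2.20 ± 0.48 SE, adjusted p = 0.00235). amon, the prohormone convertase that cuts peptide precursors, was at 0 in 8 to 12 h and averaged 1.25 ± 0.849 RPM (SD over 4 windows) in 12 to 16 h, where it was called (adjusted p = 0.0494). Fur2, a furin protease, fell at 4 to 8 h from 403 ± 213 RPM (log2 change -2.34 ± 0.47 SE, adjusted p = 0.00106).

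The 7 neuronal markers summed to 443 to 1087 RPM in 8 to 12 h, 1078 to 2848 RPM in 12 to 16 h, 2269 to 3141 RPM in 16 to 20 h and 2408 to 3543 RPM in 20 to 24 h. Of these 7, 6 were called higher at 8 to 12 h, 3 in the next period and 0 in both later ones, where unadjusted p was below 0.05 for 0 of them too. None of the 7 was at 0 in a window after 8 h. Their sum overlapped between 12 to 16 h and 16 to 20 h, where 12 members were called. Several peptide genes, CCHa2, Tk and Dh31 among them, are also expressed in gut endocrine cells. The 5 midgut enzyme markers summed to 27.8 to 164 RPM in 12 to 16 h, 114 to 892 RPM in 16 to 20 h and 2313 to 16000 RPM in 20 to 24 h. Of these, 4 of 5 were called higher at 16 to 20 h and 5 of 5 at 20 to 24 h, and betaTry was at 0 in every window from 12 to 17 h. Muscle markers, 4 in all, summed to 585 RPM at 8 to 9 h and 18910 RPM at 15 to 16 h, and the 7 cuticle markers to 7468 RPM at 12 to 13 h and 96320 RPM at 16 to 17 h. Of 5 glial markers, repo and wrapper were called lower at 16 to 20 h (log2 change -1.14 ± 0.42 SE, adjusted p = 0.0448, and -1.64 ± 0.47 SE, adjusted p = 0.0128). The part of any of these tissues in the peptide calls was not tested.

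Pupae were compared with larvae on plus-strand genes, rescaled to reads per 1000000 plus-strand reads (plus-strand RPM), in a limma fit of 5 stages a side. Of 13 members that passed the filter, 0 were called, where 3% of all 5404 plus-strand genes were, 1.48% higher and 1.52% lower. Unadjusted limma p was below 0.05 for 4 of the 13 members (Hug, Nplp2, Nplp3 and Nplp4) and for 1162 of the 5404 plus-strand genes. By the count tests, edgeR called 0 members, and DESeq2 called Nplp2 lower and Nplp3 higher. FMRFa did not reach the filter. The levels are given by stage.

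**Figure D3:**
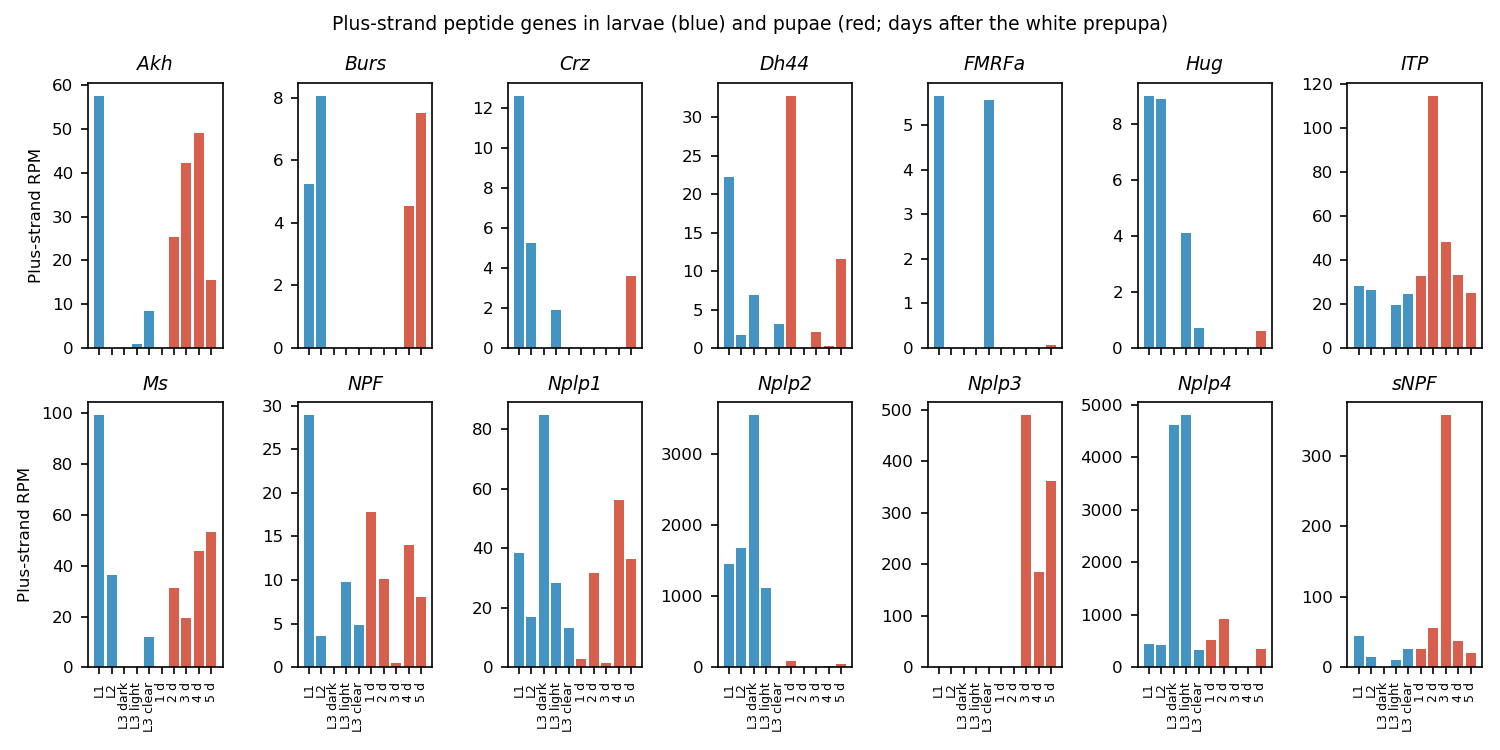
Level of each of the 14 plus-strand peptide genes, in plus-strand RPM, in the 5 larval libraries (blue) and 5 pupal libraries (red), 1 bar per library and a separate axis from 0 for each gene. Nplp2 and Nplp4 bars are tall in larvae, Nplp3 bars appear from 3 days after the white prepupa, and the tallest sNPF bar is the 3 day pupa.

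Nplp2, Nplp3 and Nplp4 reached the highest single values of the 14 plus-strand members, though each was low or at 0 in some stages. Nplp2 measured 1450, 1676, 3540, 1115 and 1.05 plus-strand RPM in L1, L2 and dark, light and clear gut L3, and 93.8, 4.59, 1.59, 12 and 47.7 plus-strand RPM in pupae of 1 to 5 days. The clear gut larvae lay below all 5 pupal libraries and the other 4 larval stages above them (adjusted p = 0.098), and without that library limma called Nplp2 lower in pupae. Nplp3 was at 0 in all 5 larval libraries and in pupae of 1 and 2 days, and measured 489.7, 185 and 362 plus-strand RPM at 3, 4 and 5 days (adjusted p = 0.102). Without the 1 day pupae limma called Nplp3 higher. Nplp4 measured 440.4, 418, 4610, 4801 and 326 plus-strand RPM in larvae and 525, 914, 0, 1.13 and 341 plus-strand RPM in pupae (adjusted p = 0.143). It was at or near 0 at 3 and 4 days, and its dark and light gut L3 values exceeded all others.

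Among the hormones, Akh was high in L1 and again in pupae. Its larval values were 57.7, 0, 0, 0.819 and 8.37 plus-strand RPM and its pupal values 0, 25.2, 42.4, 49.1 and 15.5 plus-strand RPM, so the classes overlapped. Ms followed a like order, with 99.2, 36.4, 0, 0 and 11.9 plus-strand RPM in larvae and 0, 31.1, 19.6, 45.7 and 53.1 plus-strand RPM in pupae. Burs measured 5.23 and 8.06 plus-strand RPM in L1 and L2, was at 0 in all 3 L3 stages and in pupae of 1 to 3 days, and measured 4.53 and 7.49 plus-strand RPM at 4 and 5 days. Crz and Hug were at 0 in pupae of 1 to 4 days, with 3.6 and 0.599 plus-strand RPM at 5 days. ITP measured 28.3, 26.1, 0, 19.7 and 24.8 plus-strand RPM in larvae and 32.8, 115, 48.2, 33.3 and 24.9 plus-strand RPM in pupae, highest at 2 days. sNPF measured 44.6, 14.2, 0, 9.83 and 26.5 plus-strand RPM in larvae and 25.3, 55.7, 357, 36.6 and 20.6 plus-strand RPM in pupae, and the 3 day value stood above all the rest.

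Dh44 was highest at 1 day after the white prepupa (32.8 plus-strand RPM) and in L1 (22.2 plus-strand RPM), and it was at 0 in light gut L3 and at 2 days. Nplp1 ranged from 13.2 to 84.8 plus-strand RPM in larvae and from 1.59 to 56.1 plus-strand RPM in pupae. NPF ranged from 0 to 28.9 plus-strand RPM in larvae and from 0.529 to 17.8 plus-strand RPM in pupae. FMRFa was above 0 in L1 (5.67 plus-strand RPM), clear gut L3 (5.58 plus-strand RPM) and 5 day pupae. In the shallow dark gut library 25 of the 35 members were at 0, against 4 to 10 in the other larval libraries.

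For minus-strand members, larvae alone can be described, in RPM. CCHa2 was even, at 38.9, 27, 26.3, 43.4 and 27.1 RPM in L1, L2 and dark, light and clear gut L3. Lk measured 26.9, 9.64, 2.29, 18.8 and 30.1 RPM, AstC 39.97, 13.2, 1.15, 20.2 and 16.6 RPM and Orcokinin 22.9, 18.1, 11.4, 15.4 and 39.2 RPM in the same order. All 3 were above 0 in every larval stage, but in dark gut L3 Lk rested on 2 reads and AstC on 1. ETH, which acts at each larval moult, measured 15.8, 3.39, 0, 0.366 and 5.35 RPM and was highest in L1. Eh was above 0 in L1 and L2 alone, at 0.491 and 2.74 RPM. AstCC and CNMa were at 0 in all 5 larval libraries, and Ptth was above 0 only in L1 (0.491 RPM).

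Adults were represented by 1 library of each sex, so no test was made, and the intervals given are exact Poisson 95% intervals that cover counting error only. Of 35 members, 28 reached 2 RPM in at least 1 of the libraries. The male library was at least 2-fold higher for 23 of these 28 (82.1%) and the female library for 0, where 35.5% and 28.1% of 10930 genes passed the same fold in each direction. The median ratio of male to female was 3.39 for the members and 1.04 for all genes. CCHa2 measured 124 RPM (116.7 to 131.6) in males and 22.2 RPM (19.5 to 25.1) in females, a ratio of 5.6 (4.87 to 6.45). Ms measured 68.9 and 10.7 RPM (ratio 6.43, 5.28 to 7.88), and Akh 66.7 and 11.3 RPM (ratio 5.92, 4.88 to 7.23). Both hormones lay more than 2-fold apart over their whole interval. Mip had a ratio of 9.9 (5.65 to 18.7), and SIFa one of 20.1 on 47 male and 3 female reads (6.47 to 101). ETH measured 2.84 RPM in males and 0 in females. The observed male value was 10.7-fold a floor of 3 reads in the female library. With counting error, the lower limit of the exact Poisson interval of the ETH ratio was 8.07.

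**Figure D4:**
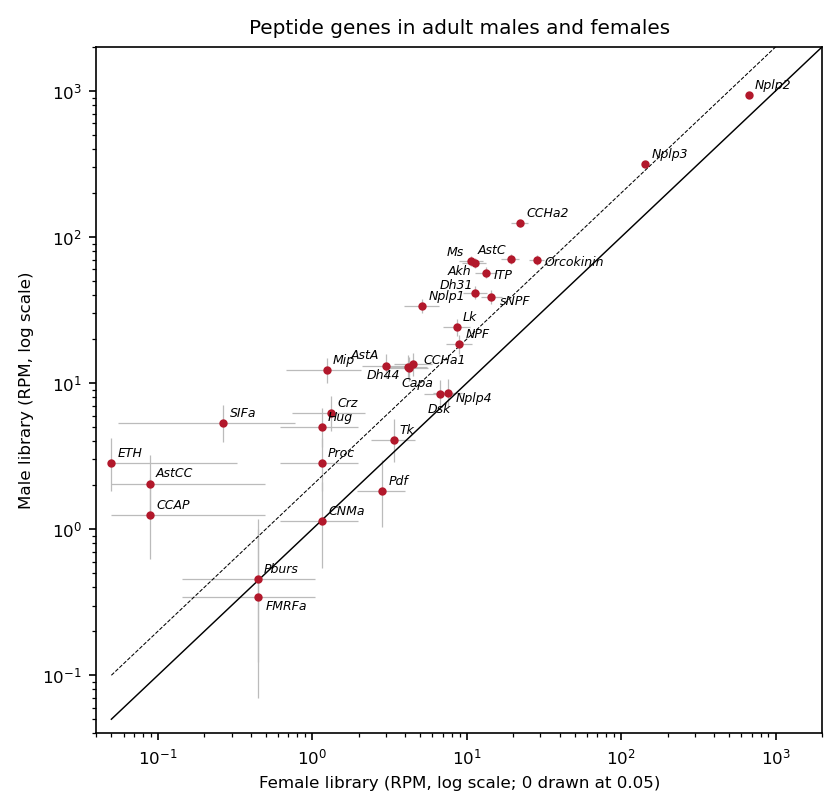
Start-site signal of peptide genes in the male library (vertical) against the female library (horizontal), both in RPM on log axes, with exact Poisson 95% intervals as grey bars, for members with more than 3 reads in either library. The solid line marks equal signal and the dashed line a 2-fold higher male value, and Pdf is the point farthest below the solid line.

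Members without a 2-fold difference included the most abundant one. Nplp2 measured 935.5 RPM in males and 672 RPM in females (ratio 1.39, 1.35 to 1.44). Nplp4 (ratio 1.13, 0.819 to 1.56), Dsk (1.25, 0.895 to 1.74) and Tk (1.22, 0.749 to 1.97) had intervals that include 1, as did Pdf, at 1.82 RPM in males and 2.84 RPM in females (0.642, 0.329 to 1.2). Burs and Ptth had 0 reads in both libraries. Nplp3, which was at 0 in larvae, measured 315 RPM in males and 143 RPM in females (ratio 2.21, 2.07 to 2.35).

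All 7 neuronal markers were at least 2-fold higher in males, with a median ratio of 3.93 and sums of 2236 RPM in males and 564 RPM in females. Of 18 peptide receptors at 2 RPM or more, 15 were at least 2-fold higher in males (median ratio 4.62), and of 11 processing and vesicle genes 8 were (median ratio 2.81). Of these 11, svr and Fur2 were at least 2-fold higher in females. All 5 glial, all 4 muscle and the 3 cuticle markers at 2 RPM or more had a higher male value too, with median ratios of 2.06, 2.02 and 3.55. Of these, repo (ratio 1.28, 0.716 to 2.3) and Lcp65Ag2 (ratio 1.17, 0.604 to 2.24) had intervals that include 1. The 5 midgut markers went both ways, with 2 at least 2-fold higher in males, 2 in females and a median ratio of 0.735. Among fat body markers, the yolk protein gene Yp1 measured 7.735 RPM in males and 3935 RPM in females, and Lsp2 75.76 RPM in males and 35.63 RPM in females. The part of tissue composition in the peptide ratios was not tested.

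Start sites of peptide genes were narrow. The authors' peak list gives each start site as an interval on build dm3 with a score of the authors that the sources used here do not explain. Peaks were listed for the series as a whole and not by stage. The highest-scoring peak of the 35 members had a median width of 15 bases (quartiles 9.5 and 21.5), against 82 bases (37 and 121) over 12698 genes. It was at most 25 bases wide in 28 members (80%) and in 18.3% of all genes. Members had 1 peak in 26 of 35 cases (74.29%), against 59.78% of all genes. With peaks under 10% of a gene's highest score set aside, the shares were 85.71% and 83.56%. Below a score of 3000 the median member was narrower than the median gene in each bin of score. Members had 5.5 bases below a score of 100 and 10.5, 15 and 21 bases in the bins of 100 to 300, 300 to 1000 and 1000 to 3000, where all genes had 17, 43, 68 and 91 bases. From 3000 upward the 2 members, Nplp2 and Nplp4, had a median of 149.5 bases against 124 for all genes.

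**Figure D5:**
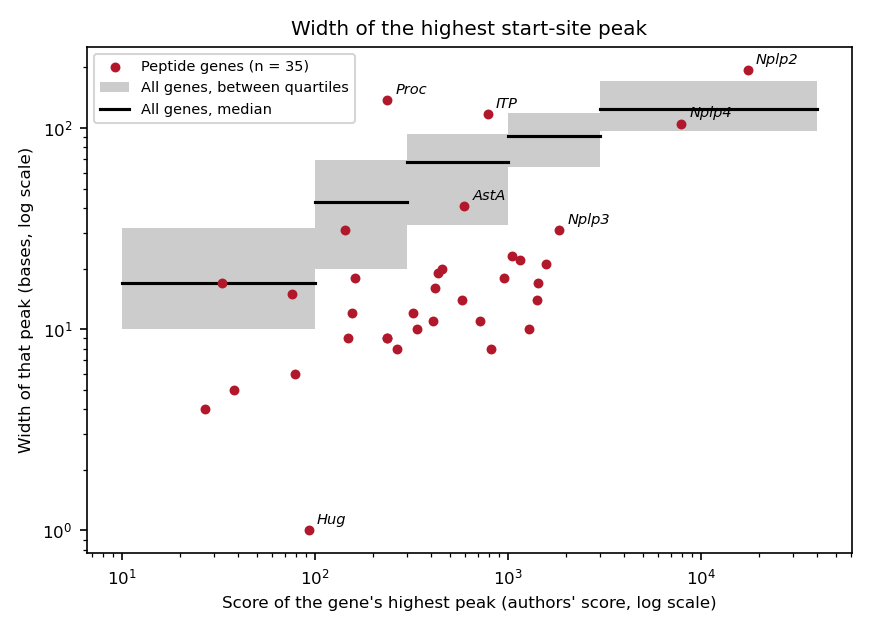
Width in bases of each gene's highest-scoring start-site peak against the authors' score of that peak, both on log axes, with the 35 peptide genes as red points. Black lines are medians and grey boxes the span between quartiles of all genes in 5 score bins, and Nplp2, Proc and ITP are the red points above the medians.

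Wide peaks were found in 4 members. Nplp2 started within 194 bases (chr3L:13349471-13349664, plus strand), Proc within 138 bases (chr2L:7871320-7871457, minus strand), ITP within 117 bases (chr2R:20431117-20431233, plus strand) and Nplp4 within 105 bases (chr2L:2008414-2008518, plus strand). Of these, Nplp2 and ITP were also called in the first embryo comparison. The width of Nplp2 and Nplp4 stood beside the highest 2 scores of the set, 17472 and 7888. Narrow examples were Akh with 8 bases (chr3L:4141570-4141577, plus strand), Capa with 10 bases (chr3R:25740063-25740072, minus strand) and Hug with a single base (chr3R:8351909, plus strand). CCHa2 and ITP had 4 listed peaks each, and CNMa had 3 that each held at least 10% of its highest score. Peptide receptors had a median width of 17 bases, while processing and vesicle genes had 98.5 and neuronal markers 99.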

How the data were processed

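RAMPAGE libraries of whole animals were analysed at 36 stages. The authors deposited 1 table of RPM values by gene, scaled over the reads in gene peaks since each column sums to 1000000, and a list of 24264 gene peaks, each with a score. STAR, Cufflinks and the build dm3 are named in the submitters' processing notes, and their roles and the treatment of duplicate reads are not given in the sources used here. Symbols were matched for 12089 of 12698 genes from an annotation of a later build, whose coordinates were not used. A row that names no gene held 0.107% of the signal and was left out. Members and lists were chosen with earlier results of these data known. Values were tested as log2(RPM + 1) after a filter of at least 2 RPM in at least 3 libraries, with limma 3.58.1 in R 4.3.3 (trended eBayes, 18 residual degrees of freedom for embryos and 8 for larvae with pupae), Benjamini-Hochberg adjustment over all genes and a spline with 5 degrees of freedom for the course. The procedure was tested on simulated data. In each library 100% of values divided by the smallest step into whole reads (tolerance 0.01 of 1 read), and these recovered reads were tested with edgeR 4.0.16 and DESeq2 1.42.0 as alternatives. The 16 to 17 h library was left out of those count tests because its step could not be checked independently. Depth ran from 698702 to 16690598 reads, and intervals from recovered reads cover counting error only. Other alternatives were pseudocounts of 0.5 and 5 RPM, no filter, median-of-ratios scaling, a fit of only the compared libraries, each library left out in turn and the shallow embryo libraries left out. Named genes are all members, with values by library for those called, and of other lists at most the 3 largest called changes in each direction. Minus-strand genes are at 0 in every pupal library, for a reason the sources used here do not state, so larvae and pupae were compared on plus-strand genes only.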

Additional observations from a re-analysis of the deposited data

Results flagged for a closer look

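In 10 of 77 groups of 4 or 5 libraries that were checked over the members (13%), the highest library stood apart from the rest by more than Dixon's 95% limit. That limit is set to flag about 1 in 20 groups of normally distributed values. These values were not shown to be so, and the libraries of a group are successive stages that can differ for that reason. Where all other libraries are at 0, as for Crz and Hug in pupae, the highest stands apart whatever its size. The 13% therefore cannot be set against 1 in 20. In embryos, Orcokinin measured 12.24 RPM at 3 to 4 h against 0.4982 to 2.116 RPM in the other windows of 0 to 4 h. CCHa1 measured 0.644 RPM at 9 to 10 h against at most 0.08435 RPM in the rest of 8 to 12 h. Mip and sNPF each measured 4.251 RPM at 11 to 12 h, a library with under 1000000 reads, against at most 0.8881 RPM and 0.8435 RPM in the other windows of that period. Dh44 measured 1.114 RPM at 12 to 13 h, another shallow library, against at most 0.3907 RPM. The Mip, sNPF and Dh44 values correspond to 4 reads, 4 reads and 1 read.

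After hatching, Akh measured 57.68 plus-strand RPM in L1 against at most 8.369 in other larvae. Crz and Hug measured 3.595 and 0.5992 plus-strand RPM in 5 day pupae and 0 in the other 4 pupal libraries, of which the 5 day library was the deepest. ITP measured 114.8 plus-strand RPM in 2 day pupae against 24.87 to 48.17 in the rest. sNPF measured 357.3 plus-strand RPM in 3 day pupae against 20.61 to 55.74 in the rest.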

How the results depend on the processing

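Of 28 member calls in embryos, 9 were kept under every alternative, 19 were lost under at least 1 and 0 changed direction. Of the counts of members called, that of 8 to 12 h went from 1 to 4 with a pseudocount of 0.5 RPM, 0 with 5 RPM, 2 with only the 8 compared libraries, 3 in edgeR, 3 in DESeq2 and 2 without the shallow libraries. At 12 to 16 h, 9 became 4 with a pseudocount of 5 RPM and 15 without the shallow libraries. At 16 to 20 h, 12 became 7 without the shallow libraries, and at 20 to 24 h, 3 became 0 in edgeR, 1 in DESeq2 and 10 without the shallow libraries. For pupae against larvae 0 became 2 in DESeq2. Leaving out 1 library at a time gave 2 to 4, 1 to 3, 7 to 12, 10 to 15 and 2 to 5 members over the 5 embryo comparisons, 0 to 1 for pupae and 27 to 30 for the course. Counts over all genes moved too. The 1772 calls of 4 to 8 h became 830 with only the 8 compared libraries, and the 2526 of 16 to 20 h became 1613 so, 1357 in edgeR, 1506 in DESeq2 and 1435 without the shallow libraries. The 675 of 20 to 24 h became 416, 100, 191 and 1121 under the same settings. The 162 of pupae became 80 without a filter, 0 in edgeR and 440 in DESeq2. One library left out gave 1146 to 2354, 1030 to 1860, 806 to 2003, 1714 to 3004 and 429 to 978 over the embryo comparisons and 33 to 607 for pupae. The cause of these changes was not tested. No paired analysis was possible because no stage has a replicate and numbers only order the stages of a group. Promoter motifs and precursor proteins were planned and not run, since no sequence table was used here. Depth limits low members most, as 3 reads were worth up to 4.29 RPM.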
